A study of Mus musculus with 12 samples.

Results

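The 10 genes described here belong to the unfolded protein response of the endoplasmic reticulum (ER) and to the integrated stress response, and they were measured in the livers of adult mice whose mothers were fed a vitamin D deficient or a vitamin D sufficient diet. They are Hspa5, Dnajb9, Herpud1, Xbp1, Atf4, Ddit3, Atf3, Trib3, Asns and Creb3l1. They were chosen by name from the pathways and are 10 of the 52636 genes in the count tables. All 10 passed the filter on low counts, as did 12453 genes in all. RNA-seq was done on 1 liver library from each of 12 male C57Bl/6J offspring at 16 weeks of age. The 6 VDD-F1 mice had mothers fed the vitamin D deficient diet from before mating through pregnancy, and the 6 VDS-F1 mice had mothers fed the sufficient diet. All mothers received the sufficient diet after delivery, and all offspring received it from weaning on, so the groups differ in early exposure and not in the diet eaten as adults. The deficient mothers also received calcium gluconate, so that the lack of vitamin D and the calcium supplement cannot be told apart. The litter of each mouse is not given in the sources used here, and p-values therefore measure the spread between these mice.

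When unfolded protein builds up in the ER, 3 membrane sensors pass the signal on. Ire1 splices the Xbp1 mRNA, Atf6 is cut in the Golgi and moves to the nucleus, and Perk phosphorylates the translation factor eIF2α, which slows most translation and favors that of Atf4. Xbp1 and Atf6 raise the chaperones and the degradation machinery of the ER, while Atf4 raises genes of amino acid supply and, with Ddit3, genes tied to cell death. Other kinases that sense amino acid shortage, viral RNA or heme also phosphorylate eIF2α, and this wider pathway is the integrated stress response. Hepatocytes secrete most plasma proteins and hold much rough ER.

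Between 14275793 and 20815066 fragments were counted on genes per library, on the strand that the kit keeps. The 6 hepatocyte markers summed to between 77654 and 104493 CPM, the count scaled to the size of the library, in every library. VDS6 had 11.1% of its fragments outside genes against 2.52% to 4.94% in the other libraries, and VDD2 had the highest sums of stellate cell and cholangiocyte markers of all 12 mice. A liver weight is given in the supplement for 7 of the mice (VDS3 to VDS6 and VDD4 to VDD6) and not for the other 5 (VDD1 to VDD3, VDS1 and VDS2). These are called here the recorded and the unrecorded set, and the diets were also compared within each set.

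The promoters were searched for letters by which these pathways are usually recognized. Of the 9 members searched, 5 held at least 1 match and 4 held none, and the stretches of the 4 members with matches before the start site are shown so that the results can be set beside them. RefSeq promoters on GRCm38.p6, from 250 bases before to 50 bases after the start site, were at hand for 9 of the 10 members and not for Creb3l1. Both strands were searched for the ER stress response element (CCAAT and CCACG with 9 bases between them), its second form (ATTGG and CCACG with 1 base between them), the C/EBP-ATF response element TGATGNAA, the cyclic AMP response element TGACGTCA and the unfolded protein response element TGACGTGG. Of all 32851 promoters, 0.119%, 0.0365%, 3.97%, 1.79% and 0.676% held them, in that order. In the 120 bases before each start site, 5′ to 3′ on the gene's own strand, capitals mark a match.
Hspa5: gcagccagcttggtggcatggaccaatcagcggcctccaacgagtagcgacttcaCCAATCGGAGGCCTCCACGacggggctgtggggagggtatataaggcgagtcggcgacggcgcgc
Herpud1: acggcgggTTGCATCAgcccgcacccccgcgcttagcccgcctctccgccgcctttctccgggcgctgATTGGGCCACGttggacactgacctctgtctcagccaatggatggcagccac
Atf3: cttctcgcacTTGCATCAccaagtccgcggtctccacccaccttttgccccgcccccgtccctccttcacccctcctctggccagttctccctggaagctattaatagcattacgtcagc
Asns: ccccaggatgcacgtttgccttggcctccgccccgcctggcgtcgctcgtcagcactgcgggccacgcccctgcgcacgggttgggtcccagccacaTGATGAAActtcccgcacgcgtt
The Hspa5 stretch lies at chr2:34771970-34772089 on the plus strand and holds the ER stress response element at positions -65 to -47, counted from the start site. The Herpud1 stretch, at chr8:94386309-94386428 on the plus strand, holds the second form at -52 to -42 and a C/EBP-ATF element on the opposite strand at -112 to -105. The Atf3 stretch, at chr1:191183334-191183453 on the minus strand, holds the C/EBP-ATF element on the opposite strand at -110 to -103. The Asns stretch, at chr6:7693210-7693329 on the minus strand, holds it on the gene's strand at -23 to -16. Trib3 held the same element on the opposite strand just after its start, and Dnajb9, Xbp1, Atf4 and Ddit3 held none of the 5 in this window. GENCODE places the outermost start of Hspa5, Atf3, Asns, Dnajb9 and Ddit3 further upstream than RefSeq does. The whole Hspa5 and Atf3 stretches and part of the Asns stretch lie inside the extent of the GENCODE gene and can be transcribed in some isoforms. The same holds for the whole Dnajb9 window and for part of the Ddit3 window. Sequence before the GENCODE start of Dnajb9 was not searched, so its lack of a match covers this window only. A match is a run of letters and not a bound site.

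Per length of exon, the members spanned a wide range of levels. Herpud1, a membrane protein that helps to pass misfolded proteins to degradation, and Hspa5, the main Hsp70 chaperone of the ER (BiP), had the highest levels, with mean values of 201 and 195 CPM per kb. Xbp1 stood at 57.9, the co-chaperone Dnajb9 at 30.3 and Atf4 at 24.1 CPM per kb. Trib3, Ddit3, Creb3l1, Asns and Atf3 had levels of 2.46, 1.48, 1.07, 0.857 and 0.766 CPM per kb. These 5 rested on few fragments, with 4 to 92 per library for Asns, 6 to 107 for Atf3, 19 to 108 for Creb3l1, 12 to 83 for Ddit3 and 32 to 183 for Trib3. The ranges over the 12 mice overlapped between neighbours in this order, except between Hspa5 and Xbp1 and between Atf4 and Trib3.

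None of the 10 members passed the thresholds of the study (a log2-fold change beyond 1 at an adjusted p-value below 0.05) between the 6 VDD-F1 and the 6 VDS-F1 mice by edgeR's quasi-likelihood test, where 0.0402% of all genes tested did. At an unadjusted p under 0.05 there were 2, of which Creb3l1 was higher (9.55% of all genes) and Dnajb9 lower (6.29%), and 15.8% of all genes reached that level in either direction. The VDD-F1 and VDS-F1 values overlapped for each of the 10, as they did for all but 1.18% of genes. Of the 10, 6 had log2-fold changes below 0, namely the 3 with folding or degradation roles and Xbp1, Atf4 and Ddit3. Of all genes, 50.8% lay above 0. Atf3, Asns and Creb3l1 had changes of about 1 above 0, and Trib3 lay at 0.03.

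**Figure D1:**
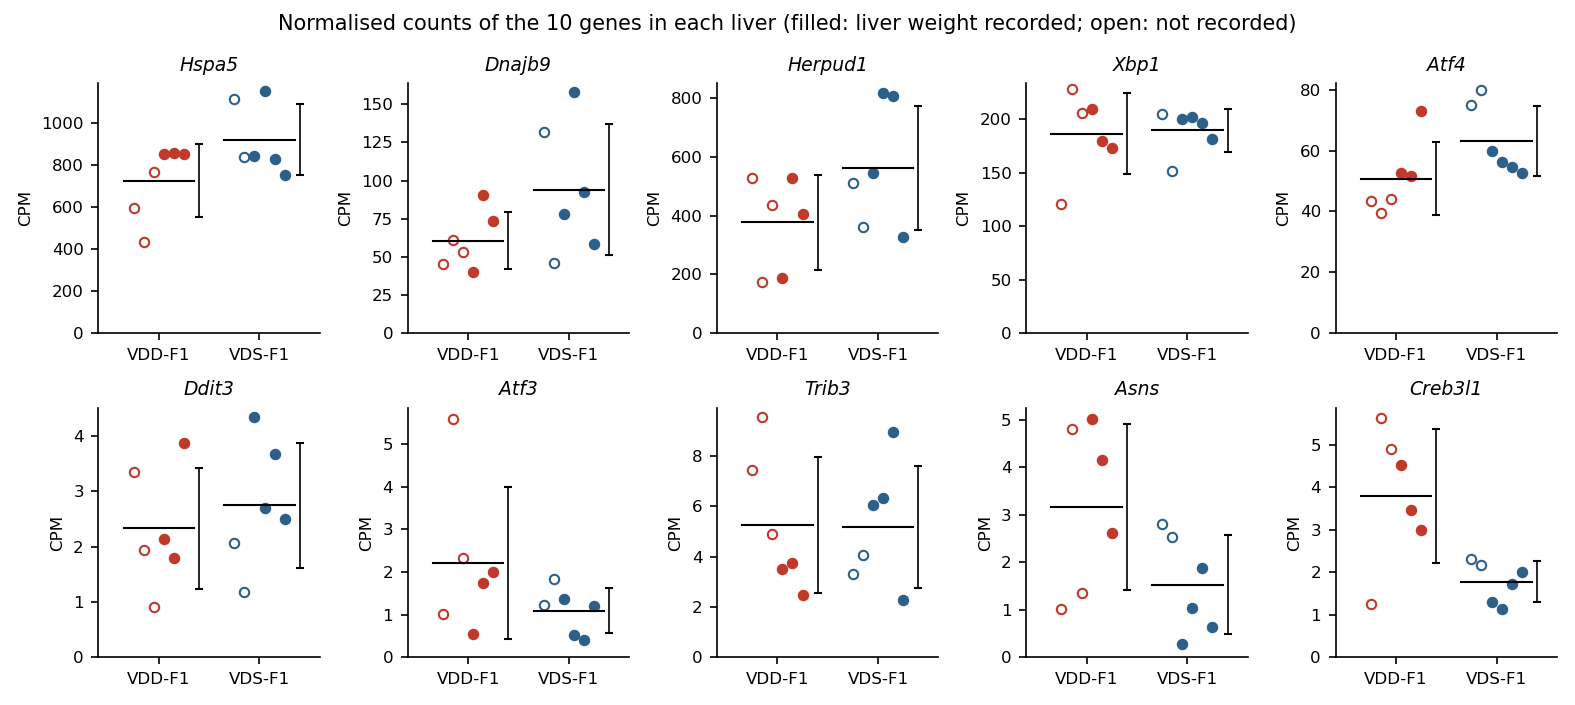
CPM of each member in each liver, with VDD-F1 in red and VDS-F1 in blue, the recorded set filled and the unrecorded set open. Horizontal lines are group means and bars the SD over 6 mice, and the groups overlap in every panel, with 5 of 6 VDD-F1 mice above all VDS-F1 mice for Creb3l1 and 5 of 6 below all of them for Atf4.

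Hspa5 was measured at 594, 432, 764, 850, 858 and 851 CPM in VDD1 to VDD6 and at 1113, 837, 842, 1152, 830 and 751 CPM in VDS1 to VDS6. The 3 highest VDD-F1 values, all from the recorded set, lie close to each other and inside the VDS-F1 range, and the unrecorded VDD1 and VDD2 lie below every VDS-F1 mouse. The log2-fold change was -0.34 ± 0.17 (SE, n = 6 per group, edgeR adjusted p = 0.349). Dnajb9, which brings unfolded clients to Hspa5 and keeps Ire1 in check, measured 45.4, 61.2, 52.9, 40.2, 90.3 and 73.4 CPM in VDD-F1 and 132, 46.0, 77.9, 158, 92.4 and 58.7 CPM in VDS-F1. VDS1, VDS4 and VDS5 exceeded the highest VDD-F1 mouse, and the other VDS-F1 mice lay within the VDD-F1 range. Its log2-fold change was -0.63 ± 0.28 (SE, edgeR adjusted p = 0.289). Herpud1 measured 529, 173, 437, 186, 529 and 405 CPM in VDD-F1 and 512, 362, 543, 818, 808 and 327 CPM in VDS-F1. VDD2 and VDD4 lie below all other mice, and the log2-fold change was -0.58 ± 0.31 (SE, edgeR adjusted p = 0.387). The counting of these libraries keeps the strand, and an antisense gene overlaps Herpud1.

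Xbp1, the factor that raises chaperones once Ire1 has spliced its mRNA, was close in both groups, at 186 ± 37.9 CPM in VDD-F1 and 190 ± 20.4 CPM in VDS-F1 (SD, n = 6). edgeR gave a log2-fold change of -0.03 ± 0.13 (SE, edgeR adjusted p = 0.954). A count per gene cannot tell spliced from unspliced Xbp1 mRNA. Ddit3, the factor also called Chop, stood at 2.33 ± 1.09 CPM in VDD-F1 and 2.75 ± 1.13 CPM in VDS-F1, with a log2-fold change of -0.22 ± 0.35 (SE, edgeR adjusted p = 0.806). Its measured level is uncertain because genes overlap it, and the fragments on the opposite strand (22 to 63 per library) were as many as those on its own.

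Atf4, the central factor of the integrated stress response, measured 43.6, 39.6, 44.0, 52.5, 51.6 and 73.1 CPM in VDD-F1 and 74.9, 80.0, 59.7, 56.3, 54.6 and 52.7 CPM in VDS-F1. VDD6 alone of the VDD-F1 mice lies above the lowest VDS-F1 mouse. On the log2 scale the change was -0.31 ± 0.15 (SE, edgeR adjusted p = 0.334). Atf4 is controlled largely through its translation, which RNA counts do not measure.

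Atf3, a stress-induced factor and a target of Atf4, measured 1.01, 5.58, 2.33, 0.55, 1.74 and 2.0 CPM in VDD-F1 and 1.23, 1.83, 1.37, 0.52, 0.42 and 1.22 CPM in VDS-F1. VDD2 stood far above the other 11 mice, and the groups overlapped otherwise. The difference between diets was a log2-fold change of 1.01 ± 0.50 (SE, edgeR adjusted p = 0.344), and it was 0.48 ± 0.42 without VDD2. Trib3, a pseudokinase induced by Atf4 and Ddit3 that restrains them in turn, measured 7.45, 9.55, 4.90, 3.50, 3.73 and 2.47 CPM in VDD-F1 and 3.31, 4.07, 6.05, 6.35, 8.96 and 2.29 CPM in VDS-F1. The unrecorded VDD-F1 mice were high and the recorded ones low, and in VDS-F1 the higher values were those of VDS3, VDS4 and VDS5. The log2-fold change over all 12 mice was 0.03 ± 0.36 (SE, edgeR adjusted p = 0.984), and its sign turned under several settings.

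Asns, which makes asparagine and is a classic Atf4 target, measured 1.01, 4.80, 1.36, 5.01, 4.15 and 2.61 CPM in VDD-F1 and 2.81, 2.54, 0.27, 1.04, 1.87 and 0.64 CPM in VDS-F1. VDD2, VDD4 and VDD5 exceeded every VDS-F1 mouse, while the other 3 lay within the VDS-F1 range. The log2-fold change was 1.03 ± 0.50 (SE, edgeR adjusted p = 0.340). Creb3l1, a membrane-bound factor of the same build as Atf6 and known for its part in collagen secretion, measured 1.26, 5.64, 4.90, 4.53, 3.47 and 2.98 CPM in VDD-F1 and 2.32, 2.18, 1.31, 1.14, 1.74 and 2.0 CPM in VDS-F1. All VDD-F1 mice but VDD1 lay above all VDS-F1 mice. edgeR gave a log2-fold change of 1.08 ± 0.31 (SE, edgeR adjusted p = 0.122), and it passed the thresholds by DESeq2 (1.09 ± 0.33, adjusted p = 0.0307), the test the study names, by voom (1.12, adjusted p = 0.0475) and by edgeR without VDD1 (1.26 ± 0.24, adjusted p = 0.0175). DESeq2 called 2.03% of all genes and voom 2.02%, and Creb3l1 was the only member called by either. Leaving out VDD1 takes away the only VDD-F1 mouse that overlapped VDS-F1, and that fit called 260 genes in all against 5 with every mouse.

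In whole liver, fewer cells of a type and less RNA per cell cannot be told apart. Creb3l1 was therefore set beside the 10 markers of stellate cells and fibroblasts, of which 8 had higher means in VDD-F1 and none was at 0 in any library. Their sum ran from 463 to 1141 CPM in VDD-F1 and from 466 to 636 CPM in VDS-F1. VDD1, the VDD-F1 mouse with low Creb3l1, had the lowest sum of all 12 mice, and VDD2, with the highest Creb3l1, had the highest sum. VDS1 had a sum of 636 CPM with 2.32 CPM of Creb3l1, while VDD3 had 640 CPM with 4.90 CPM and VDD6 had 609 CPM with 2.98 CPM. Among these markers Col3a1, a fibrillar collagen, had the smallest p (log2-fold change 1.78 ± 0.40, edgeR adjusted p = 0.0855). The part of these cells in the Creb3l1 difference was not tested.

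**Figure D2:**
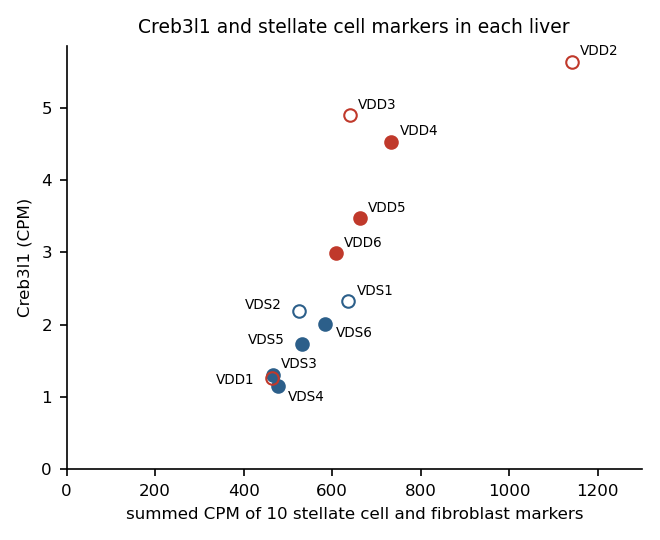
Creb3l1 (CPM, vertical) against the summed CPM of 10 stellate cell and fibroblast markers (horizontal) in each liver, with VDD-F1 in red, VDS-F1 in blue, the recorded set filled and the unrecorded set open. VDD2 sits at the top right with 5.64 CPM of Creb3l1 and a sum of 1141 CPM, and VDD1 sits at the bottom left among VDS-F1 mice.

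Within the recorded set, 3 VDD-F1 mice were compared with 4 VDS-F1 mice, and Asns and Creb3l1 were higher in VDD-F1. These 2 of the 10 members passed the thresholds, where 4.33% of all genes did. Asns measured 5.01, 4.15 and 2.61 CPM in VDD4 to VDD6 against 0.27, 1.04, 1.87 and 0.64 CPM in VDS3 to VDS6. The lowest VDD-F1 value lies above the highest VDS-F1 value, and Asns rose by 2.01 ± 0.45 on the log2 scale (SE, edgeR adjusted p = 0.0152). Creb3l1 measured 4.53, 3.47 and 2.98 CPM against 1.31, 1.14, 1.74 and 2.0 CPM, again with no overlap, and rose by 1.24 ± 0.28 (SE, edgeR adjusted p = 0.0155). Groups without overlap were found in this direction for 11.9% of all genes, and in either for 23.4%, so that these 2 of 10 do not stand out by that count. Both calls depended on single mice, as neither was made without VDD4 (adjusted p = 0.0685 for Asns and 0.0714 for Creb3l1) or without VDD5 (0.0631 and 0.0509).

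Trib3 lay the other way in the recorded set, at 3.50, 3.73 and 2.47 CPM in VDD-F1 and 6.05, 6.35, 8.96 and 2.29 CPM in VDS-F1. VDS6 had the lowest value of the 7 mice. On the log2 scale the change was -0.88 ± 0.36 (SE, edgeR adjusted p = 0.155). VDS6, the library with many fragments outside genes, was the only recorded VDS-F1 mouse not above the VDD-F1 mice. Without it the groups no longer overlapped, and Trib3 passed the thresholds at -1.15 ± 0.23 (edgeR adjusted p = 0.00755). That fit called 658 genes in all, against 536 with all 7 mice. In the fit of all 7, Trib3, Asns and Creb3l1 were the 3 members at an unadjusted p under 0.05. This level was reached by 25.6% of all genes, with 13.0% of genes higher and 12.6% lower. Herpud1 had a log2-fold change of -0.74 ± 0.35 and Dnajb9 of -0.51 ± 0.31 (SE, edgeR adjusted p = 0.206 and 0.349). Hspa5 and Atf4, by contrast with their values over all mice, stood near 0 at -0.07 ± 0.13 and 0.08 ± 0.12 (SE).

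Within the unrecorded set, 3 VDD-F1 mice were compared with 2 VDS-F1 mice. No member passed the thresholds, and neither did any other gene (0%) by edgeR, against 25 genes and no member by DESeq2, while 3.77% of genes reached an unadjusted p under 0.05, 2.05% higher and 1.72% lower. Hspa5, Atf4 and Trib3 were the 3 members at that level. Atf4 measured 43.6, 39.6 and 44.0 CPM in VDD1 to VDD3 and 74.9 and 80.0 CPM in VDS1 and VDS2. These groups are far apart relative to their spread, with a log2-fold change of -0.87 ± 0.14 (SE), the 8th smallest p of all genes, and an adjusted p of 0.650 by edgeR against 0.000363 by DESeq2. The change is below the study's fold threshold by either test. Hspa5 measured 594, 432 and 764 CPM against 1113 and 837 CPM, a log2-fold change of -0.71 ± 0.28 (SE, edgeR adjusted p = 0.9998). Trib3 measured 7.45, 9.55 and 4.90 CPM against 3.31 and 4.07 CPM, a log2-fold change of 0.99 ± 0.36 (SE, edgeR adjusted p = 0.9998). The groups did not overlap for these 3 members, where 18.5% of all genes showed no overlap, 8.97% with VDD-F1 higher and 9.49% with VDD-F1 lower. Asns, in contrast to the recorded set, had a log2-fold change of -0.14 ± 0.70 (SE), and Creb3l1 one of 0.80 ± 0.63.

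**Figure D3:**
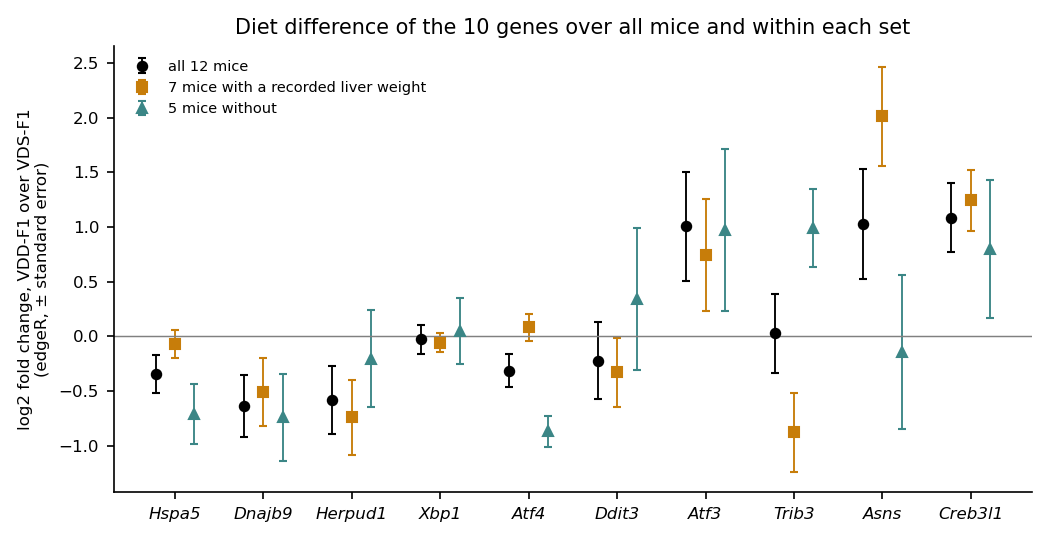
Log2-fold change of VDD-F1 over VDS-F1 for each member (edgeR, bars ± SE) over all 12 mice (black circles), in the 7 recorded mice (orange squares) and in the 5 unrecorded mice (green triangles). Trib3 lies at -0.88 in the recorded and at 0.99 in the unrecorded set, Asns at 2.01 and -0.14, and Atf4 at 0.08 and -0.87.

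Whether the diet difference itself differed between the sets was tested with an interaction term over all 12 mice. None of the 10 members passed the thresholds, where 0.0803% of all genes did, and 4 reached an unadjusted p under 0.05, against 9.01% of all genes. Atf4 had the smallest p of the 4. Its diet difference was 0.95 ± 0.19 higher in the recorded set on the log2 scale (SE, edgeR adjusted p = 0.114), with an adjusted p of 0.0250 without VDD2 and of 0.00229 by DESeq2, all at changes under the fold threshold. For Trib3 the difference was -1.87 ± 0.58 (SE, edgeR adjusted p = 0.335), for Asns 2.16 ± 0.88 (adjusted p = 0.502) and for Hspa5 0.64 ± 0.30 (adjusted p = 0.554). Without VDD2, Asns passed the thresholds at 3.20 ± 0.74 (edgeR adjusted p = 0.0370), in a fit that called 244 genes in all against 10 with all 12 mice. Creb3l1 had an interaction of 0.44 ± 0.65 (adjusted p = 0.918), so that its 2 within-set values were not shown to differ. At equal diet, none of the members passed the thresholds between the recorded and unrecorded mice, where 0.891% of all genes did, and none reached an unadjusted p under 0.05 by edgeR, where 13.9% did, against 1 by DESeq2. Atf3 came closest at -0.94 ± 0.45 (SE, edgeR adjusted p = 0.386), and stood at -0.51 ± 0.42 without VDD2.

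The members were next set beside other genes of the same pathways, of which 75 of 80 were tested in 6 lists, and beside 24 immediate early and clock genes, which belong to other programs. Over all 12 mice none of these 99 genes passed the thresholds. The ER chaperones and folding enzymes were lower on balance, as 15 of 16 had a log2-fold change below 0 with a median of -0.17, while 50.8% of all genes lay above 0. Only 3 of the 16 reached an unadjusted p under 0.05, each below 0, against 6.29% of all genes below 0 and 15.8% in either direction. They were Manf, a secreted ER stress protein (-0.42 ± 0.17), Creld2, a folding factor (-0.63 ± 0.24), and the oxidase Ero1b (-0.43 ± 0.20), with adjusted p from 0.235 to 0.309 by edgeR. In the unrecorded set all 16 lay below 0 with a median of -0.35, where 51.8% of all genes lay above 0, and in the recorded set 9 of 16 did with a median of -0.03, where 51.0% of all genes lay above. These lists share their libraries with Hspa5, whose level over the mice was most like those of Canx (r = 0.962), Pdia3 (0.948) and Pomt2 (0.948) after the diet means were taken out (n = 12, log2 CPM).

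Upstream of the members, 2 of the 10 sensors and proteases reached an unadjusted p under 0.05, near the 15.8% of all genes. Ern1, which encodes Ire1, measured 88.2, 74.8, 106, 91.9, 93.5 and 74.6 CPM in VDD-F1 and 144, 112, 137, 112, 130 and 100 CPM in VDS-F1. VDS6 was the only VDS-F1 mouse below the highest VDD-F1 mouse, and the log2-fold change was -0.47 ± 0.11 (SE, edgeR adjusted p = 0.0855). Mbtps2, a protease that releases Atf6, had a log2-fold change of 0.27 ± 0.10 (adjusted p = 0.197). Creb3l2, a close relative of Creb3l1, went against it at -0.48 ± 0.15 (adjusted p = 0.143). Of the 15 genes of ER-associated degradation, 1 reached an unadjusted p under 0.05, the adaptor Sel1l at -0.29 ± 0.12 (adjusted p = 0.272), and the median was -0.04.

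In the list drawn up for targets of Atf4 and Ddit3, the 17 genes tested were split, 8 above and 9 below 0 with a median of -0.01. At an unadjusted p under 0.05 there were 4 higher and 1 lower of the 17, against 9.55% and 6.29% of all genes. The stress hormone Gdf15 measured 8.46, 5.17, 9.04, 5.90, 8.20 and 8.49 CPM in VDD-F1 and 0.94, 7.26, 2.96, 3.49, 2.15 and 3.86 CPM in VDS-F1, where VDS2 alone reached the VDD-F1 range. Its log2-fold change was 1.13 ± 0.34 (SE, edgeR adjusted p = 0.134). The others above 0 were the amino acid transporter Slc7a1 (1.15 ± 0.36), the factor Atf5 (0.37 ± 0.13) and the hormone Fgf21 (1.45 ± 0.63). The 1 below was the phosphatase subunit Ppp1r15b (-0.20 ± 0.07), which was listed but is not an established target of either factor. In the recorded set Gdf15 rose by 1.28 ± 0.23 (adjusted p = 0.00432) and Slc7a1 by 1.15 ± 0.32 (adjusted p = 0.0387), and these 2 of 17 were called, where 4.33% of all genes were. Gdf15 kept its call whichever of the 7 mice was left out, and Slc7a1 lost it for 6 of them. Fgf21 was the 1 gene called of 75 in the pathway lists between the sets of mice at equal diet, against 0.891% of all genes, lower in the recorded set (-1.80 ± 0.43, adjusted p = 0.0462), and it lost the call when any mouse but VDD5 was left out.

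Among 14 genes of amino acid synthesis and of tRNA charging, where Asns belongs by function, 3 were higher and 2 lower at an unadjusted p under 0.05 over all mice, against 9.55% and 6.29% of all genes. Psat1, an enzyme of serine synthesis, had a log2-fold change of 1.83 ± 0.60 (SE, edgeR adjusted p = 0.165). It measured 4.65 CPM in VDD2 and between 0.14 and 1.13 CPM in the other 11 mice, and it was under the count filter without VDD2. Aldh18a1, of proline synthesis, was at 7.46 CPM in VDD2 against 0.82 to 3.73 CPM elsewhere (log2-fold change 0.77 ± 0.35). Mthfd2, a mitochondrial enzyme of folate metabolism, had a log2-fold change of 0.86 ± 0.38 over all mice and rose by 1.52 ± 0.42 in the recorded set (adjusted p = 0.0388), the 1 of 13 called there against 4.33% of all genes, and it lost the call for 5 of the 7 mice left out in turn. Shmt2, another mitochondrial enzyme of folate metabolism, and the alanyl-tRNA ligase Aars lay below 0 at -0.34 ± 0.11 and -0.26 ± 0.11.

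**Figure D4:**
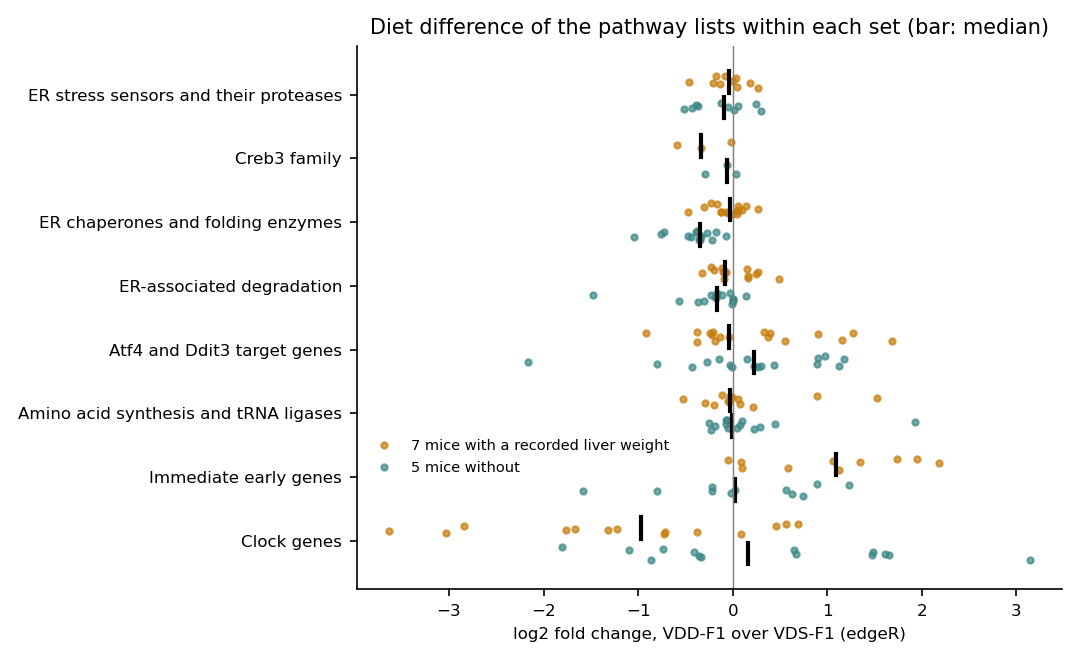
Log2-fold change of VDD-F1 over VDS-F1 (edgeR, horizontal) of each gene of the 6 pathway lists and of the immediate early and clock genes in the recorded set (orange) and the unrecorded set (green), with black bars at the list medians. The chaperones have medians of -0.03 and -0.35, and the clock genes -0.97 and 0.16.

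Atf3 belongs to the immediate early genes, which respond within minutes to many stimuli, and it was set beside genes of this kind and of the circadian clock. In the recorded set, where 4.33% of all genes were called, 5 of 10 immediate early genes were called, all higher in VDD-F1, namely Fos (2.19 ± 0.60), Jun (1.12 ± 0.22), Btg2 (1.95 ± 0.22), Dusp1 (1.34 ± 0.27) and Klf6 (1.06 ± 0.17). Atf3 itself had a log2-fold change of 0.74 ± 0.51 there (SE, edgeR adjusted p = 0.406). In the same mice 6 of 14 clock genes were called, all lower in VDD-F1, with Dbp at -3.64 ± 0.89, Bhlhe41 at -2.84 ± 0.68, Per3 at -1.76 ± 0.51, Nr1d1 at -1.67 ± 0.35, Per2 at -1.32 ± 0.31 and Tef at -1.22 ± 0.31. With each of the 7 mice left out in turn, Btg2 and Dusp1 kept their calls, while the other 9 genes lost them for between 1 (Nr1d1) and 6 (Per3) of the mice. In the unrecorded set none was called, and the clock genes split into 7 above and 7 below 0, with 3 higher and 4 lower at an unadjusted p under 0.05, against 2.05% and 1.72% of all genes. Of the 6 called in the recorded set, 5 lay above 0 there, namely Dbp (3.14 ± 0.99), Bhlhe41 (1.61 ± 0.72), Per3 (1.48 ± 1.03), Nr1d1 (1.47 ± 0.18) and Tef (0.67 ± 0.30), and Per2 (-0.74 ± 0.27) lay below. Of the 5 immediate early genes called in the recorded set, Fos (-1.59 ± 0.66), Jun (-0.22 ± 0.25), Dusp1 (-0.22 ± 0.39) and Btg2 (-0.02 ± 0.33) lay below 0 in the unrecorded set. Klf6 (0.62 ± 0.33) lay above. Among the 11 immediate early genes tested there, 3 were higher and 2 lower at an unadjusted p under 0.05, beside the same shares of all genes. Over all 12 mice, 5 of 10 immediate early genes were higher and 2 of 14 clock genes lower at an unadjusted p under 0.05, against 9.55% and 6.29% of all genes, among them Egr1 (1.32 ± 0.47), Klf6 (0.95 ± 0.27), Btg2 (1.01 ± 0.36), Cry2 (-0.52 ± 0.14) and Per2 (-0.88 ± 0.31). The hour at which each liver was taken is not given in the sources used here, and the part of clock time in the values of Atf3, Trib3, Asns and the other members was not tested.

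**Figure D5:**
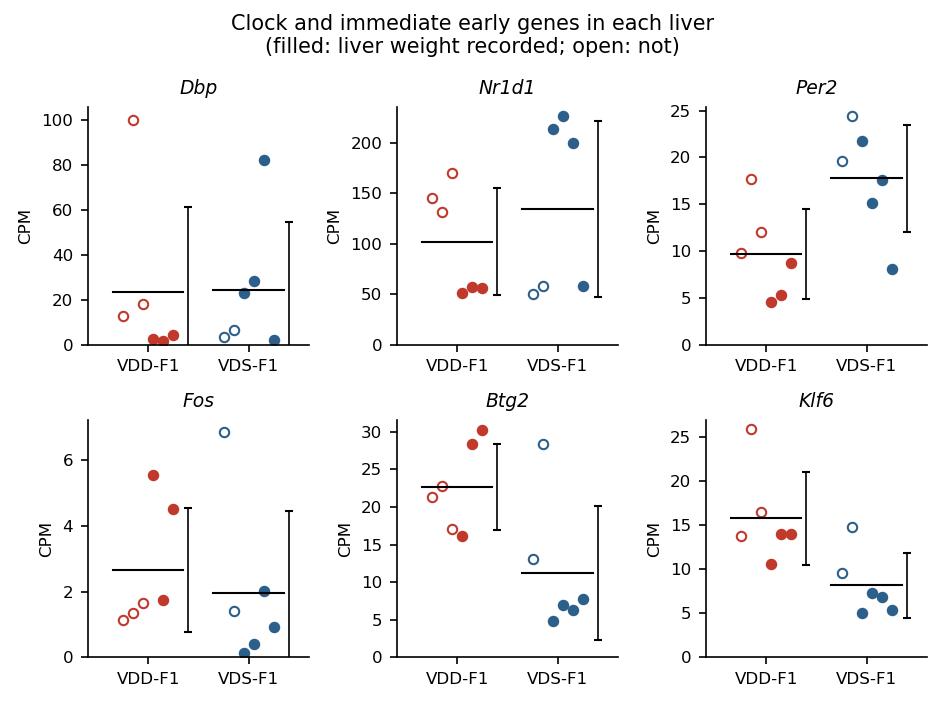
CPM of 3 clock genes (Dbp, Nr1d1, Per2) and 3 immediate early genes (Fos, Btg2, Klf6) in each liver, colored by diet, with the recorded set filled and the unrecorded set open. Lines are group means and bars the SD over 6 mice, cut at 0. Nr1d1 is at 51.2 to 57.2 CPM in the recorded and at 132 to 170 CPM in the unrecorded VDD-F1 mice.

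Markers of other liver cells differed in the recorded set too. In the recorded set, where 4.33% of all genes were called, 3 of 10 stellate cell and fibroblast markers were called higher (Col1a1 at 2.67, Col3a1 at 2.17 and Col1a2 at 1.59) and Ecm1 lower at -1.22, where Col1a1, Col1a2 and Ecm1, and Epcam in the next sentence, are named after their values were seen. Of 6 Kupffer cell markers Timd4 was called lower (-1.13), and of 5 cholangiocyte markers Epcam was called higher (1.32). The summed stellate level of 609 to 734 CPM in the 3 recorded VDD-F1 mice did not overlap with 466 to 584 CPM in the 4 recorded VDS-F1 mice, the mice in which Asns and Creb3l1 were called. In the same mice the sums also lay apart for hepatocytes (95968 to 101354 CPM in VDD-F1 and 77654 to 84878 CPM in VDS-F1), Kupffer cells (79.8 to 129 and 135 to 180 CPM) and cholangiocytes (57.9 to 71.7 and 27.6 to 44.0 CPM), where 23.4% of single genes showed no overlap. Alb, named here for its level (mean 67825 CPM over all mice), makes up most of the hepatocyte sum. Of the 6 hepatocyte markers, 3 had a log2-fold change above 0 in the recorded set and 3 below. The smallest p over all mice among markers of the other cell types was that of Serpina1c for hepatocytes (-0.60 ± 0.14, adjusted p = 0.0855), Clec4g for endothelial cells (-0.28 ± 0.09), Timd4 for Kupffer cells (-0.81 ± 0.32), Spp1 for cholangiocytes (0.83 ± 0.35) and Ptprc for lymphocytes (0.44 ± 0.29). Single markers do not stand for their lists, as 3 of 6 hepatocyte, 2 of 6 endothelial, 2 of 6 Kupffer cell and 5 of 5 cholangiocyte markers had a log2-fold change above 0. Summed markers ran from 79.8 to 231 CPM in VDD-F1 and from 122 to 241 CPM in VDS-F1 for Kupffer cells, from 23.9 to 115 and from 27.6 to 51.0 for cholangiocytes, and from 195 to 240 and from 195 to 268 for endothelial cells. Their part in the values of the members was not tested.

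The members did not follow one another closely from mouse to mouse. With the diet means taken out, Pearson's r over the 12 mice, which share the libraries' depth and makeup, ran from -0.63 between Herpud1 and Creb3l1 to 0.69 between Xbp1 and Creb3l1. Hspa5 and Dnajb9 had r = 0.47, Hspa5 and Atf4 had r = 0.55, and Atf4 and Trib3 had r = -0.61. Atf4 and its target Asns had r = 0.37. The genes with the highest r to Creb3l1 were Dpysl2 (0.935), Cavin1 (0.922) and Loxl2 (0.917), those to Asns were 1810030O07Rik (0.924), Pzp (0.921) and Tlr1 (0.914), and those to Atf3 were Ctps2 (0.938), Tor4a (0.919) and Fam114a1 (0.909). Such values, like those given above for Hspa5, are the highest picked from all genes tested over 12 mice. Whether they exceed what such a search finds among unrelated genes was not tested. VDD2 had the highest Creb3l1 and Atf3 of all mice.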

How the data were processed

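Total RNA from left lateral liver lobes was depleted of ribosomal RNA and sequenced with a strand-keeping kit. Reads were trimmed and aligned by the authors to GRCm38 (STAR, GENCODE M15), and they deposited unnormalized fragment counts for each gene, without strand and by strand. The main tests used the reverse strand. Positions and exon lengths come from GENCODE M21 on GRCm38, which matched 52403 of 52636 genes. A gene was tested where its mean count reached 12, in R 4.3.3 with edgeR 4.0.16 (TMM normalization, quasi-likelihood test in the legacy form), with Benjamini-Hochberg adjustment over all genes tested. CPM use TMM library sizes, and log2 CPM a prior count of 2. The SE is the log2-fold change over the root of F. Alternatives were DESeq2 1.42.0, voom with quality weights (limma 3.58.1), other filters and size factors, the unstranded count, edgeR's newer form, the set of mice as a covariate, a replicate block and each mouse left out. The methods were tested on simulated data. Motifs were searched in Python 3.11.15 in RefSeq promoters.

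The members, the gene lists and the sets of mice were chosen with earlier results of these data known. The genes named are the 10 members, up to 3 genes per list and direction with the smallest unadjusted p under 0.05 over all mice, genes called in any fit, the marker with the smallest p per cell type, and the 3 genes most like each of 4 members. No 2 libraries of the same group agreed within sampling noise. The summed lymphocyte markers are not reported here. With a mean count near the filter, a fold change is imprecise.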

Additional observations from a re-analysis of the deposited data

Results flagged for a closer look

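Atf3 in VDD2 stood at 5.58 CPM, apart from the other 5 VDD-F1 mice, of which the nearest was at 2.33 CPM and the lowest at 0.55 CPM. The gap was a larger share of the range than the critical value of Dixon's test for 6 samples allows. Over the 20 groups of member values examined, chance alone flags about 1 in 20. In the same mouse the summed markers of stellate cells (1141 CPM) and cholangiocytes (115 CPM) were the highest of the 12 and that of Kupffer cells (231 CPM) the second highest, and their part in this value was not tested.

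Zfp36, an immediate early gene that promotes decay of mRNAs, differed in its diet effect between the sets by the interaction test. The difference, recorded minus unrecorded, was 1.38 ± 0.21 on the log2 scale (SE, edgeR adjusted p = 0.0265). It measured 111, 146 and 129 CPM in the recorded VDD-F1 mice against 86.0, 79.7, 82.5 and 96.6 CPM in the recorded VDS-F1 mice, and 82.1, 68.0 and 82.6 CPM against 113 and 157 CPM in the unrecorded ones. Leaving out single mice moved the difference between 1.12 and 1.6, and it passed the thresholds in 5 of these 12 fits.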

How the results depend on the processing

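The count of members passing the thresholds over all 12 mice went from 0 to 1 with DESeq2 and to 1 with voom, Creb3l1 in each, and ran from 0 to 1 over the fits that left out 1 mouse. Of the 99 genes in the other lists, 1 passed with DESeq2 (the Atf4 target Gdf15), 3 with voom (Gdf15, the immediate early gene Btg2 and the clock gene Per2) and 0 to 1 with a mouse left out. With a mouse left out of the recorded set, where 381 to 658 genes were called in all, the count of members ran from 0 to 3. The 3 came in the fit with 658 genes. For the interaction, where 3 to 244 genes were called, the count of members ran from 0 to 1, with the 1 in the fit with 244. In the unrecorded set and between the sets it stayed at 0 in each of these fits.

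Of the 10 members' diet differences over all mice, the signs that turned were those of Trib3, which was -0.47 with voom, -0.11 with the set as a covariate and from -0.23 to 0.25 with a mouse left out, and Xbp1, from -0.092 to 0.072. With a mouse left out, signs also turned in the recorded set for Atf4 (-0.10 to 0.16) and Hspa5 (-0.15 to 0.080), in the unrecorded set for Ddit3 (-0.19 to 0.82), Asns (-1.18 to 0.22), Herpud1 (-0.52 to 0.14), Xbp1 (-0.15 to 0.30) and Dnajb9 (-1.30 to 0.22), between the sets for Xbp1 (-0.034 to 0.16) and Atf4 (-0.11 to 0.14), and in the interaction for Xbp1 (-0.34 to 0.095), Atf3 (-0.65 to 0.62) and Dnajb9 (-0.72 to 0.80). Among the other genes named, to which the tabulation was limited, the diet difference over all mice turned for Dbp (-1.65 to 0.88), Per3 (-0.81 to 0.15) and Zfp36 (-0.12 to 0.17, and -0.000299 without a filter). The cause was not tested.

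All genes called over 12 mice numbered 5 by edgeR, 253 by DESeq2, 252 by voom, 17 by edgeR's newer form, 70 without a filter, 21 with the set as a covariate and 0 to 260 with a mouse left out. Members at an unadjusted p under 0.05 numbered 2 by edgeR (15.8% of all genes), 7 by DESeq2 (16.7%), 7 without a filter (13%), 2 to 3 in the other fits of all 12 mice and 1 to 5 with a mouse left out. In the unrecorded set DESeq2 called 25 genes, and for the interaction 97 against 10.

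The same replicate numbers mark different mice, and the correlations of same-numbered mice ran from -0.08 to 0.10. With a replicate block, 0 members passed over all mice and 17 genes in all, and Creb3l1 stood at 1.01 ± 0.36 (adjusted p = 0.260).

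Depth limits Asns, with 4 to 92 fragments per library, and Atf3, with 6 to 107. The 5 mice of the unrecorded set limit every comparison made there, and a p above the threshold does not show that the diets were alike.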

Other observations

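Trib3 and the clock gene Nr1d1 were high and low in the same mice, a pattern noticed after the values were seen and not tested. Trib3 measured 7.45, 9.55 and 4.90 CPM in VDD1 to VDD3, 3.50, 3.73 and 2.47 CPM in VDD4 to VDD6, 3.31 and 4.07 CPM in VDS1 and VDS2, 6.05, 6.35 and 8.96 CPM in VDS3 to VDS5 and 2.29 CPM in VDS6. Nr1d1 measured 145, 132 and 170 CPM, then 51.2, 57.2 and 56.5 CPM, then 49.8 and 57.7 CPM, then 214, 227 and 200 CPM and 58.1 CPM in the same order. VDS6 thus lay with the low mice for both genes, while the other 3 recorded VDS-F1 mice lay with the high ones.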
